A study of Mus musculus with 46 samples.

Results

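The insulin-like growth factor (IGF) axis was followed here through 10 genes, taken as a named list and not chosen by their values, out of 56980 genes counted in hSS2 tumours and 56941 counted in hSS1 tumours. All 10 had counts in every library and passed the filter on low counts in both tables, so every member is accounted for in each comparison. The ligands were Igf1 and Igf2, the receptors were Igf1r, Igf2r and Ghr (the growth hormone receptor), and the binding proteins were Igfbp2, Igfbp3, Igfbp4 and Igfbp5. H19, a long non-coding RNA, was the remaining member and was compared with its neighbour Igf2 in each tumour.

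RNA sequencing had been done on 46 mouse synovial sarcomas, 1 library per tumour. In all of the mice a human SS18::SSX fusion was expressed from Rosa26 after TATCre protein was injected into a limb at 8 days of age, SS18::SSX2 in the hSS2 background and SS18::SSX1 in the hSS1 background. The hSS2 tumours comprised 13 controls and 8 each with floxed Pbrm1 (written Pbrm1-fl), floxed Arid1a (Arid1a-fl) or floxed Arid1b (Arid1b-fl), and the hSS1 tumours comprised 5 controls and 4 Pbrm1-fl. All 3 targeted genes encode subunits of BAF-family chromatin remodeling complexes, Pbrm1 of the polybromo form (PBAF) and the paralogs Arid1a and Arid1b of the canonical form. Controls carried the fusion but none of these floxed genes knocked out, and the same injection of TATCre recombined the fusion and the floxed alleles. The labels call each floxed group a conditional knockout, and per the study's methods the alleles were homozygous. Mice were of mixed strain and both sexes, and each tumour was harvested when its host became morbid, so age at harvest varied. Whole tumours were sequenced, so cells that TATCre did not reach, such as vessels, immune cells and adjacent muscle, contribute to each library. Fewer cells of a type and less RNA per cell cannot be told apart in such data.

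IGF1 and IGF2 are small secreted proteins that resemble insulin. Both activate the tyrosine kinase encoded by Igf1r, which signals through insulin receptor substrates to PI3 kinase and AKT. Igf2r, the cation-independent mannose 6-phosphate receptor, takes up IGF2 for degradation in lysosomes and sends no such signal. Growth hormone acting through Ghr induces Igf1, in the liver above all but also locally. The IGF binding proteins hold the ligands in blood and tissue, and either limit or prolong their action. Igf2 and H19 are imprinted in opposite directions, the paternal copy of Igf2 and the maternal copy of H19 being active, and they share enhancers downstream of H19. Both are abundant in fetal tissues and are largely silenced after birth, H19 staying active longest in skeletal muscle.

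Total counts per library ran from 10137668 to 21294657. Levels are given as CPM, the counts of a gene scaled to the total of its library, and as CPM per kilobase of exon (FPKM) where genes are compared with each other. The targeted genes were read first, over all their exons. Pbrm1 lay at 94.1 to 134 CPM in hSS2 Pbrm1-fl and at 180 to 324 CPM in hSS2 control tumours. Arid1a lay at 239 to 287 CPM in Arid1a-fl and at 361 to 593 CPM in all but 1 of the controls. The library labelled hSS2 control replicate 9 held 254 CPM of Arid1a, inside the Arid1a-fl range, and results that rest on the controls were run again without it. Arid1b lay at 110 to 348 CPM in Arid1b-fl and at 230 to 678 CPM in control tumours, ranges that overlap, and its difference did not pass the test across all genes (log2 difference -0.80, adjusted p = 0.145, edgeR). In hSS1 Pbrm1-fl the Pbrm1 levels were 215, 253, 98.2 and 224 CPM against 278 to 356 CPM in the controls. Only replicate 3 of these 4 reached the level of the hSS2 Pbrm1-fl tumours, and the difference did not pass the test (adjusted p = 0.193, edgeR). Of 4 genes used as markers of synovial sarcoma (Tle1, Sox2, Bcl2 and Zic1), none was at 0 throughout any group, and their summed level ran from 226 to 668 CPM.

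**Figure D1:**
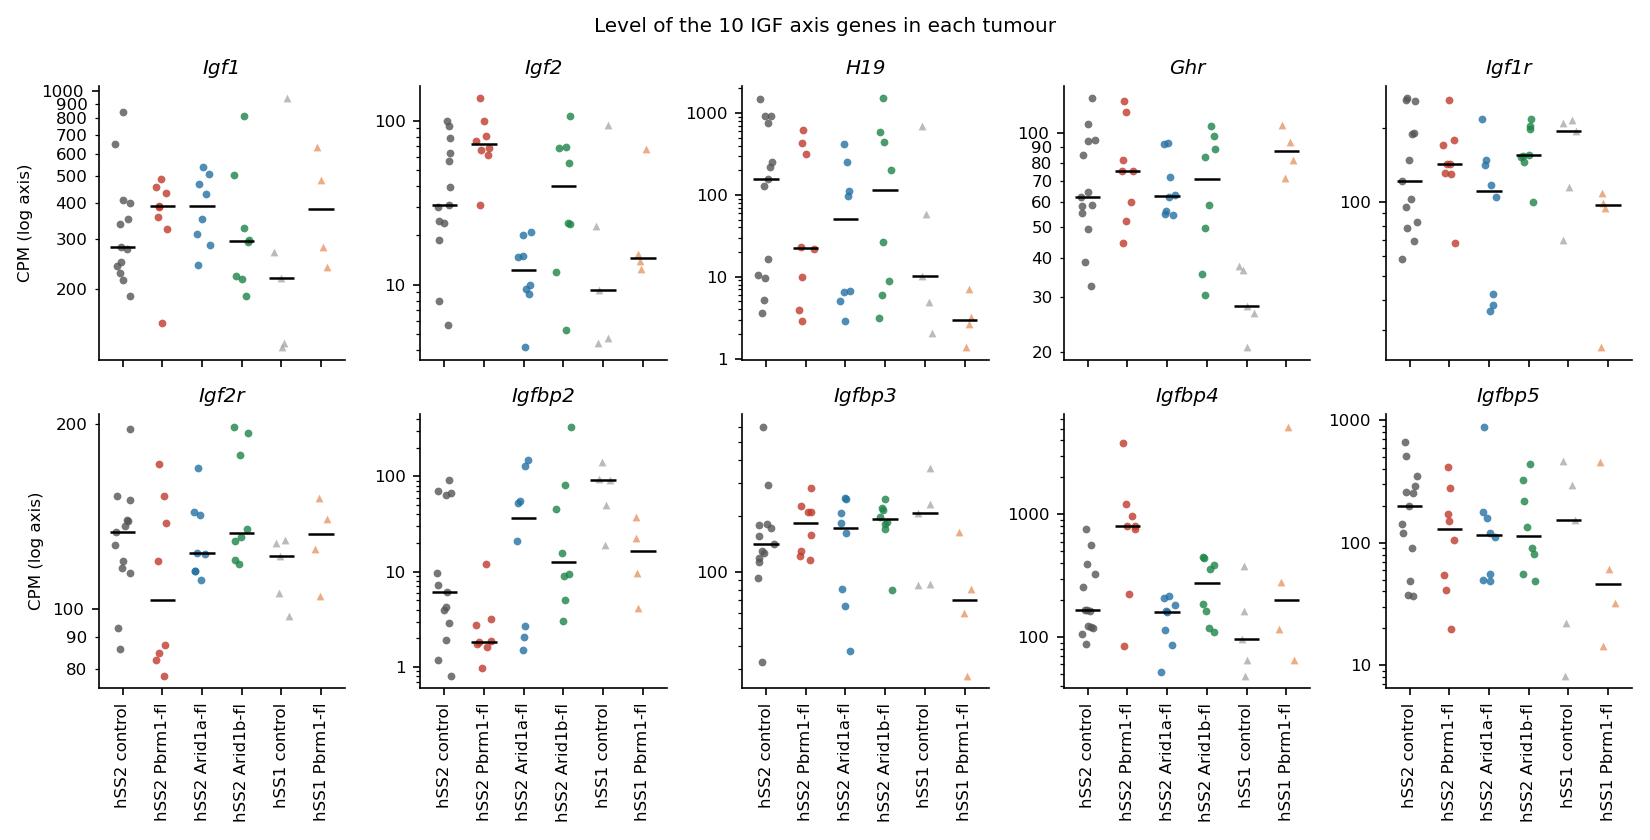
Level of each of the 10 genes in every tumour, in CPM on a log axis, by group (circles, hSS2; triangles, hSS1), with the group median as a bar. Among the hSS2 groups Igfbp4 has its highest median in Pbrm1-fl, where 6 of 8 tumours sit above all 13 controls, Igf2 has its lowest in Arid1a-fl at 4.18 to 20.9 CPM, and H19 spreads over 2.91 to 1509 CPM in hSS2 tumours whatever the genotype.

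The order of the genes per unit length differed between groups. In hSS2 control tumours H19 stood first with a median of 64.0 FPKM, followed by Igfbp3 (45.1 FPKM), Igfbp4 (37.4 FPKM), Igfbp5 (33.2 FPKM) and Igf1 (28.3 FPKM). The receptors lay lower, with medians of 14.4 FPKM for Igf2r, 7.24 FPKM for Igf1r and 6.91 FPKM for Ghr, and Igf2 (5.38 FPKM) and Igfbp2 (3.32 FPKM) came last. In hSS2 Pbrm1-fl tumours Igfbp4 stood first with a median of 182 FPKM, and Igf1 (39.5 FPKM) exceeded Igf2 (12.5 FPKM). In hSS1 control tumours Igfbp3 stood first (65.5 FPKM) and Igfbp2, last in hSS2 controls, had a median of 50.2 FPKM. Neighbours in these orders have overlapping ranges in most groups, and the order is a description of medians.

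Sequences are shown first for the Igf2 and H19 locus, because each transcript is the host of a microRNA. H19 (chr7:142575529-142578143, minus strand, GRCm38) holds the miR-675 hairpin within an exon, and Igf2 (chr7:142650766-142666816, minus strand) holds that of miR-483 in an intron. The mature sequences, from RefSeq on GRCm38.p6 and all on the minus strand, are printed 5′ to 3′ with the seed, bases 2 to 8, in capitals.
mmu-miR-675-5p (chr7:142577112-142577133): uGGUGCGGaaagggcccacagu
mmu-miR-675-3p (chr7:142577078-142577099): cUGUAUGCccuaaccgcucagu
mmu-miR-483-5p (chr7:142654968-142654989): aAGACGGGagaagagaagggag
mmu-miR-483-3p (chr7:142654932-142654952): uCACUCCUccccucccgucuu
The 4 seeds differ from each other. The libraries were made from long RNA, and the hairpin entries held 0 counts for Mir675 in every library and at most 2 counts for Mir483, so neither microRNA was measured and only the host transcripts are followed here.

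Igf1, the ligand that growth hormone induces, was present at similar levels in all groups. Its lowest, median and highest levels were 188, 281 and 840 CPM in hSS2 control tumours, 151, 391 and 488 CPM in Pbrm1-fl, 242, 392.3 and 538 CPM in Arid1a-fl, and 188, 294 and 816 CPM in Arid1b-fl. In hSS1 the controls held 124, 218, 269, 128 and 941 CPM and the Pbrm1-fl tumours 280, 636, 238 and 485 CPM. These ranges overlap in every comparison, and the log2 differences from control lay between 0.03 and 0.26 in the 4 floxed groups, none past the threshold.

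Igf2, the fetal ligand, differed more. Within hSS2 its median was lowest with floxed Arid1a and highest with floxed Pbrm1, with medians of 12.3 CPM in Arid1a-fl, 30.8 CPM in control, 39.8 CPM in Arid1b-fl and 71.6 CPM in Pbrm1-fl. The Arid1a-fl tumours held 9.42, 8.82, 20.9, 14.7, 19.995, 9.96, 15.03 and 4.18 CPM of Igf2, and the controls ran from 5.67 to 99.3 CPM. All 8 Arid1a-fl tumours were below the control median, although only 1 was below every control. The Pbrm1-fl tumours held 99.2, 137, 74.8, 80.9, 62.2, 68.4, 66.0 and 30.5 CPM. All 8 were thus above all 8 Arid1a-fl tumours, while 7 of 8 were above the control median and 1 above every control. The Arid1b-fl tumours ran from 5.32 to 106 CPM, a range as wide as that of the controls.

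Tests were made with edgeR's quasi-likelihood test in each case, with p-values adjusted over all genes. The hSS2 comparisons are not independent of each other, since each floxed group was set against the same 13 controls and enters the comparisons among floxed groups again. Igf2 fell by 1.86 ± 0.49 (SE) on the log2 scale in Arid1a-fl relative to control (adjusted p = 0.0380), and it was the only member called there, in a comparison that called 3.17% of all genes tested. That call was near the threshold. With the skeletal muscle score of each tumour as a covariate, an alternative added after seeing the data, the difference was -1.45 (adjusted p = 0.0768), and with no filter on low counts its adjusted p was 0.0632. It held in 12 of 21 fits that each left out 1 library and was lost without any of control replicates 4, 5, 12 and 13 (adjusted p 0.0543, 0.0551, 0.0506 and 0.0535) or Arid1a-fl replicates 1, 2, 5, 7 and 8 (adjusted p 0.0811, 0.0696, 0.0554, 0.0642 and 0.107). Leaving out the library labelled hSS2 control replicate 9, the difference was -1.92 (adjusted p = 0.0438), and against only the controls of the same mouse number range, described below, it was -1.98 (adjusted p = 0.0364).

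Between the 2 groups at the ends of the order, Igf2 was higher in Pbrm1-fl than in Arid1a-fl by 2.62 ± 0.54 (SE) on the log2 scale (adjusted p = 0.00148), in a comparison that called 12.3% of all genes. This call held in all 16 fits with 1 library left out. Igf2 in Pbrm1-fl against control differed by 0.76 ± 0.45 (adjusted p = 0.323), in Arid1b-fl against control by 0.07 (the smallest adjusted p of any member there was 0.841), and in Arid1a-fl against Arid1b-fl by -1.93 ± 0.53 (adjusted p = 0.130). In hSS1 the controls held 9.27, 94.2, 22.7, 4.74 and 4.402 CPM and the Pbrm1-fl tumours 12.5, 13.9, 67.1 and 15.3 CPM. The hSS1 ranges overlap, and the log2 difference of 0.05 was not past the threshold.

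The mouse numbers in the labels fall into 3 ranges that coincide with the floxed gene, every Arid1a-fl mouse being numbered under 1000, every Arid1b-fl mouse 1000 to under 2000 and every hSS2 Pbrm1-fl mouse 2000 or over. The hSS2 controls cover all 3 ranges (5, 4 and 4 mice), so each floxed group could also be set against the controls of its own range. When this was done on both sides, the Pbrm1-fl to Arid1a-fl difference in Igf2 was 3.05 with an adjusted p of 0.0607. What the ranges stand for is not given in the labels, and with fewer controls this fit also has less precision.

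Igf2os, an antisense transcript that starts within the Igf2 gene and runs the other way (chr7:142659693-142670356, plus strand), varied with Igf2. It shares 98 exon bases with Igf2, or 1.71% of the exon length of Igf2. The kit keeps strand, but the strand setting of the counting is not given in the sources used here, so reads from this short overlap may have been assigned to either gene. Igf2os held 0 to 1.40 CPM in Arid1a-fl, 0.924 to 6.42 CPM in control, 0.367 to 6.47 CPM in Arid1b-fl and 4.19 to 9.57 CPM in Pbrm1-fl. It fell by 1.96 ± 0.47 on the log2 scale in Arid1a-fl against control (adjusted p = 0.0272), a call lost without Arid1a-fl replicate 1, 2 or 8 (adjusted p 0.0552, 0.0525 and 0.0661), and it was higher in Pbrm1-fl than in Arid1a-fl by 3.14 (adjusted p = 0.000163). Of 17638 genes with a mean of at least 1 CPM in the 37 hSS2 tumours, Igf2os had the pattern most like that of Igf2 (Pearson r of log2 CPM 0.92, and 0.88 over the 9 hSS1 tumours). The next in likeness were Dlx3 (0.84), Wnt10b (0.84), H2-T23 (0.81) and Gm48996 (0.81), whose correlations in hSS1 were 0.45, 0.18, 0.65 and -0.25. These correlations share libraries and depth between genes and are given as a description. Ins2, the insulin gene beside Igf2, had 0 counts in every library.

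H19 split the hSS2 tumours into a low and a high set, and each set held all 4 hSS2 genotypes. In hSS2 its lowest, median and highest levels were 3.56, 158 and 1467 CPM in control, 2.91, 22.1 and 624.6 CPM in Pbrm1-fl, 2.91, 51.4 and 417 CPM in Arid1a-fl, and 3.12, 114 and 1509 CPM in Arid1b-fl. All 4 groups thus reach from a few CPM to above 400 CPM, and they overlap over nearly all of that range. Over the 37 tumours the widest gap in H19 lay between 26.8 and 96.2 CPM, 1.84 on the log2 scale against 0.67 for the next widest gap. The differences from control were -1.08 ± 1.19 in Pbrm1-fl, -1.81 ± 1.23 in Arid1a-fl and -0.04 in Arid1b-fl, all of them within 2 SE of 0 and none called.

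The level of H19 moved with skeletal muscle transcripts. A list of 10 contractile and metabolic muscle genes (Acta1, Ckm, Mylpf, Tnnt3, Tnni2, Tnnc2, Myh4, Myh1, Atp2a1 and Ttn) was summed in each tumour, and the sum ran from 8.38 to 87305 CPM. Its widest gap lay between 960 and 4719 CPM. The 18 tumours below this gap were the 18 below the gap in H19, and the 19 above it were the 19 above that gap. Ckm, the muscle creatine kinase, ran from 0.0571 to 37.8 CPM in the lower set and from 172 to 4899 CPM in the higher set, and no marker of the list was at 0 throughout a group. Of the control tumours 5 were in the lower and 8 in the higher set, of Pbrm1-fl tumours 5 and 3, of Arid1a-fl 4 and 4, and of Arid1b-fl 4 and 4. The genes most like H19 over hSS2 tumours were Synpo2l (r 0.96), Mustn1 (0.96), Myh8 (0.95), Csrp3 (0.95) and Lrrc30 (0.95), the first 4 of them known as muscle genes, and over the hSS1 tumours these r were 0.96, 0.83, 0.93, 0.86 and 0.83. In hSS1 the controls held 10.2, 698, 57.8, 2.05 and 4.86 CPM of H19. The 2 high values were in the 2 hSS1 control libraries with high summed muscle transcripts, 4474 CPM in replicate 2 and 1156 CPM in replicate 3, where the other 3 controls held 7.31 to 17.3 CPM. The hSS1 Pbrm1-fl tumours held 2.63, 6.99, 1.38 and 3.21 CPM of H19, with muscle sums of 9.71 to 195 CPM, so that both hSS1 libraries with a muscle sum above these were controls. A fit of hSS1 with the muscle score as a covariate, added after seeing the data, called no member. That fit does not divide the H19 difference between muscle and genotype. Whether the H19 RNA came from muscle in the sample was not tested.

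**Figure D2:**
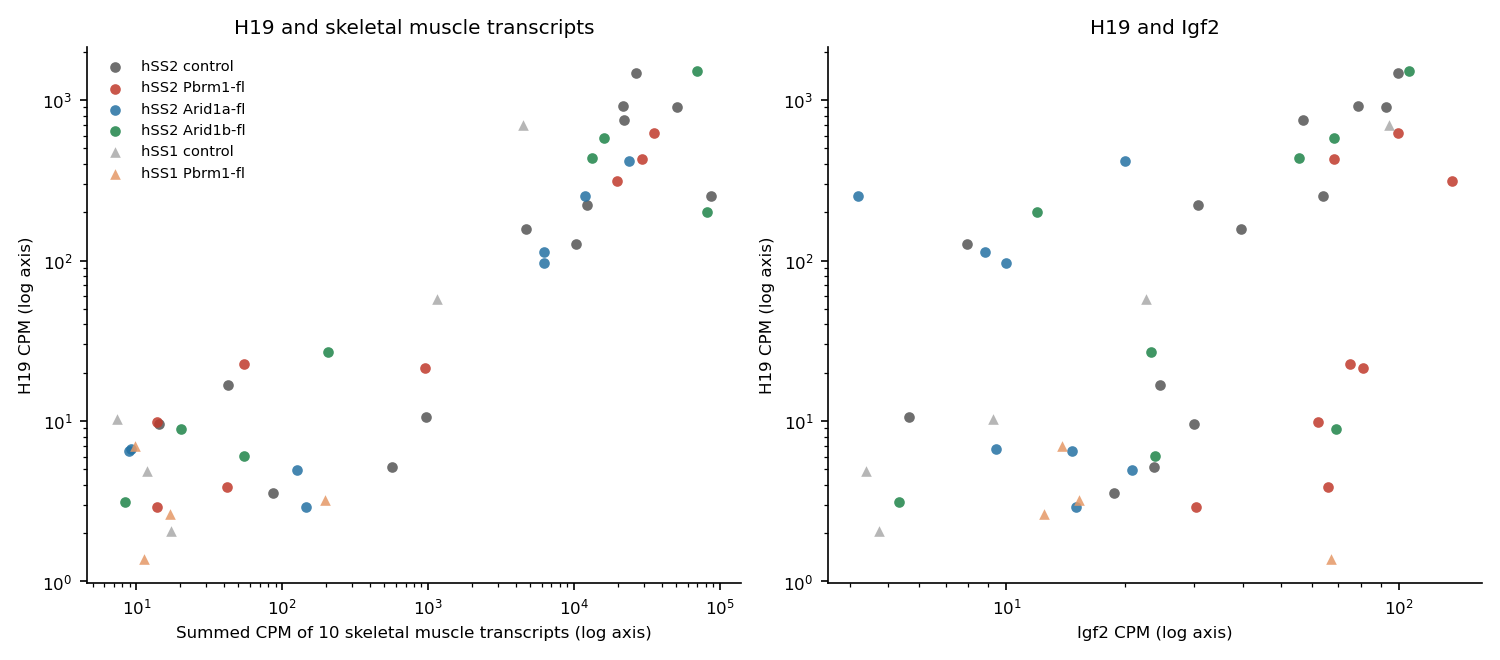
H19 in each tumour, in CPM on a log axis, against the summed CPM of 10 skeletal muscle transcripts (left) and against Igf2 CPM (right), both on log axes, coloured by group (circles, hSS2; triangles, hSS1). On the left the hSS2 tumours form 2 clusters, 18 with muscle sums up to 960 CPM and H19 up to 26.8 CPM, and 19 with muscle sums from 4719 CPM and H19 from 96.2 CPM, and each cluster holds all 4 hSS2 genotypes.

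Because of these clusters, the correlation of Igf2 with H19 is given within each muscle set. In the 19 tumours of the higher set the correlation of log2 levels was r = 0.74 (permutation test, p = 0.00028, adjusted over 2 relations 0.00056) with Spearman's rho of 0.77 (p = 0.00019, adjusted 0.00038), and r was 0.77 without the 2 tumours farthest from the median of Igf2. In the 18 tumours of the lower set r was 0.38 (permutation p = 0.123, adjusted 0.123) and rho 0.36 (permutation p = 0.138, adjusted 0.138), with r of 0.40 without the 2 farthest. The sets were chosen after the levels had been seen, and muscle transcripts still ran from 4719 to 87305 CPM within the higher set. Igf2 itself was not confined to muscle-rich tumours. Within the lower set it held 30.5 to 80.9 CPM in Pbrm1-fl, 5.67 to 29.99 CPM in control, 9.42 to 20.9 CPM in Arid1a-fl and 5.32 to 68.9 CPM in Arid1b-fl, and within the higher set 68.4 to 137 CPM, 7.92 to 99.3 CPM, 4.18 to 19.995 CPM and 11.99 to 106 CPM. The Pbrm1-fl and Arid1a-fl ranges of Igf2 were apart in both sets. This follows from all 8 Pbrm1-fl tumours lying above all 8 Arid1a-fl tumours, and is no separate result.

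**Figure D3:**
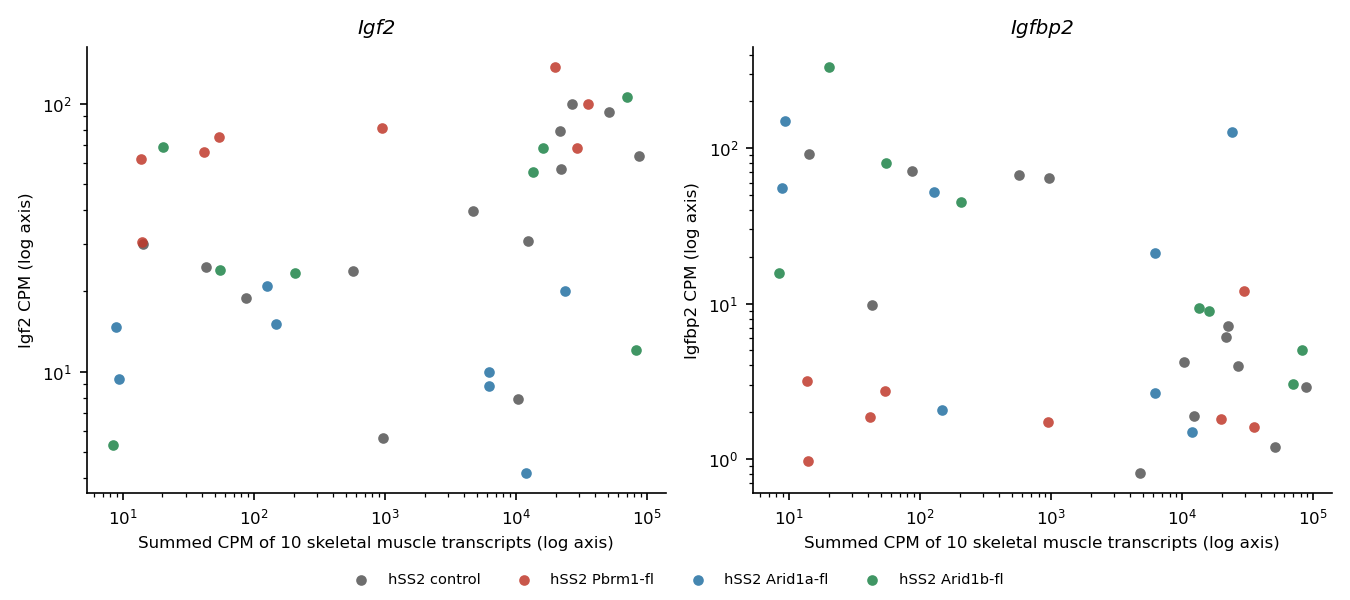
Igf2 (left) and Igfbp2 (right) CPM in each hSS2 tumour against the summed CPM of 10 skeletal muscle transcripts, all on log axes, coloured by group. Igf2 of all 8 Pbrm1-fl tumours (30.5 to 137 CPM) lies above that of all 8 Arid1a-fl tumours (4.18 to 20.9 CPM), and so at any muscle sum. Igfbp2 of the 5 Pbrm1-fl tumours with low muscle sums (0.971 to 3.19 CPM) lies below that of the 5 controls there (9.77 to 91.7 CPM).

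The balance of the pair was taken as the log2 ratio of H19 to Igf2 counts, with 0.5 added to each. It averaged 1.49 ± 2.41 (SD, n = 13) in hSS2 control. In the floxed groups (n = 8 each) the mean and SD were -0.90 ± 2.69 with Pbrm1, 1.39 ± 3.25 with Arid1a and 1.06 ± 2.78 with Arid1b floxed. H19 exceeded Igf2 in 9 of 13 tumours of control, 3 of 8 of Pbrm1-fl, 4 of 8 of Arid1a-fl and 5 of 8 of Arid1b-fl. In hSS1 it averaged 0.67 ± 1.53 (SD, n = 5) in control and -2.75 ± 1.96 (SD, n = 4) in Pbrm1-fl, with H19 above Igf2 in 4 of 5 and 0 of 4 tumours. The ratio of counts ran from 0.0587 to 1.87 in the lower muscle set and from 2.30 to 60.8 in the higher, sets that hold the same tumours as the low and high sets of H19, its numerator. Of 7 comparisons between groups none passed after adjustment. The largest differences were -3.42 for hSS1 Pbrm1-fl against control (two-sided exact permutation test, p = 0.0238, adjusted p = 0.167) and -2.39 for hSS2 Pbrm1-fl against control (exact p = 0.0502, adjusted p = 0.176). The other 5 had adjusted p of 0.295 and above.

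**Figure D4:**
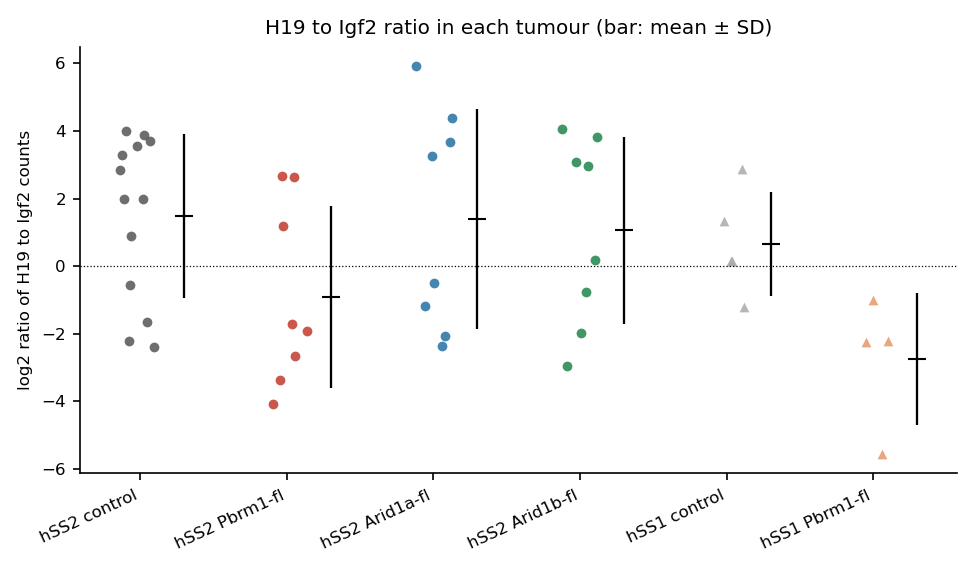
Log2 ratio of H19 to Igf2 counts in each tumour by group, with the mean ± SD as a bar and 0 (equal counts) as a dotted line. Every hSS2 group spreads to both sides of 0, and the 4 hSS1 Pbrm1-fl tumours all lie below it.

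The receptors changed little in hSS2 tumours. Ghr, which carries the growth hormone signal, had lowest, median and highest levels of 32.6, 62.6 and 129 CPM in control, 44.5, 75.5 and 127 CPM in Pbrm1-fl, 54.9, 62.9 and 92.5 CPM in Arid1a-fl, and 30.5, 71.2 and 105 CPM in Arid1b-fl. These overlap throughout, with log2 differences from control of 0.11 ± 0.25, -0.13 and -0.01. In hSS1 the groups were apart. The controls held 27.98, 37.6, 20.8, 26.6 and 36.5 CPM and the Pbrm1-fl tumours 93.2, 71.9, 106 and 82.1 CPM, so all 4 were above all 5. The difference of 1.56 ± 0.21 (SE) on the log2 scale had p = 3.2e-05 but did not pass the adjustment over 17786 genes (adjusted p = 0.0958, edgeR), in a comparison that called 1 gene, or 0.00562% of those tested. DESeq2 gave the same gene an adjusted p of 1.14e-07. With 1 library left out the difference stayed between 1.45 and 1.67 with adjusted p of 0.0667 to 0.230. The interaction, in which the hSS2 effect of floxed Pbrm1 is subtracted from its hSS1 effect, was 1.45 ± 0.43 for Ghr (adjusted p = 0.0539, edgeR). The Ghr interaction passed with DESeq2 (adjusted p = 0.0276) and with the muscle score as a covariate (1.39, adjusted p = 0.0183). It did not pass with no filter on low counts or with hSS2 limited to the highest mouse number range. With 1 hSS1 library left out it passed in 1 of 9 fits, that without hSS1 control replicate 5 (1.55, adjusted p = 0.0450). Over these 9 fits it ran from 1.34 to 1.55, with adjusted p up to 0.114.

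Sums of other marker genes also differed between the hSS1 groups. The summed level of 7 fibroblast genes (Dpt, Pi16, Clec3b, Lum, Dcn, Pdgfra and Col15a1) was 457 to 1394 CPM in hSS1 Pbrm1-fl and 171 to 424 CPM in hSS1 control, without overlap, and that of 10 proliferation genes was 489 to 1238 CPM against 833 to 2188 CPM. No fibroblast gene was at 0 throughout either group, while of 6 adipocyte genes Lep was at 0 in every hSS1 control library, with sums of 0.0986 to 9.84 CPM in Pbrm1-fl and 0.354 to 1.39 CPM in control. Over the 37 hSS2 tumours Ghr correlated with the adipocyte list at r = 0.72 and rho = 0.73 and with the fibroblast list at r = 0.63 and rho = 0.67 (permutation test, adjusted p = 0.000175 for both measures of the former, and 0.00042 and 0.00028 for the latter, over 70 relations of the 10 members with 7 marker lists), with r of 0.69 and 0.62 without the 2 farthest tumours. Within the 3 mouse number ranges r was 0.56, 0.83 and 0.79 for the adipocyte list and 0.39, 0.73 and 0.76 for the fibroblast list. Within the muscle sets it was 0.24 and -0.13 in the 18 tumours of the lower set and 0.68 and 0.72 in the 19 of the higher set, so these relations rested on the tumours with muscle transcripts. Their part in the hSS1 difference was not tested.

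Igf1r, the signaling receptor of both ligands, lay at 58.3, 122 and 263 CPM (lowest, median, highest) in hSS2 control, 67.7, 142 and 258 CPM in Pbrm1-fl, 35.8, 111 and 218 CPM in Arid1a-fl, and 99.4, 154 and 217 CPM in Arid1b-fl. In hSS1 the controls held 194, 209, 114, 69.8 and 214 CPM and the Pbrm1-fl tumours 94.5, 108, 25.6 and 99.2 CPM. The 4 Pbrm1-fl tumours were all below the control median but only replicate 3 was below every control. Igf2r, the clearing receptor of IGF2, was the most even member, at 78.0 to 198 CPM over all 37 hSS2 tumours and 97.5 to 152 CPM over the 9 hSS1 tumours. No comparison called either of them.

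Over the 37 hSS2 tumours Igf1r fell as proliferation transcripts rose. Its log2 level correlated with the mean log2 level of 10 cell cycle genes at r = -0.60 and rho = -0.61 (permutation test, adjusted p = 0.000856 and 0.0007 over the same 70 relations), with r = -0.58 without the 2 farthest tumours. Within the 3 mouse number ranges r was -0.69, -0.42 and -0.57, within the lower and higher muscle sets -0.30 and -0.68, and over the 9 hSS1 tumours 0.05. Igf2 showed r = -0.48 and rho = -0.48 with the same genes (adjusted p = 0.00919 and 0.00737), r = -0.46 without the 2 farthest, and -0.65, -0.48 and -0.49 within the ranges. Of the 70 relations 44 passed, for every marker list, so a relation with one list is not particular to it. The groups differ in this respect too, the median sum of the proliferation genes being 817 CPM in Arid1a-fl, 533 CPM in Pbrm1-fl, 473 CPM in Arid1b-fl and 326 CPM in control. With the mean log2 level of the epithelial genes Igf2 correlated at r = 0.47 and rho = 0.51 (permutation test, adjusted p = 0.00895 and 0.00493). Its r was 0.47 without the 2 farthest and 0.49, 0.72 and 0.51 within the ranges. The summed level of the epithelial genes, another measure, had medians of 28.1 CPM in Arid1a-fl, 31.9 CPM in Pbrm1-fl, 59.9 CPM in Arid1b-fl and 60.8 CPM in control. These r of Igf2 pool the lower and higher muscle sets and are not given within each. The part of either list in the difference in Igf2 was not tested.

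Among the binding proteins, Igfbp4 and Igfbp2 moved apart in tumours with floxed Pbrm1. Igfbp4 binds both IGFs, mostly limits their action, and is cut by the pappalysin proteases. The hSS2 Pbrm1-fl tumours held 799, 978, 764, 3818, 805, 1222, 224 and 84.5 CPM of Igfbp4. The controls had lowest, median and highest levels of 87.5, 165 and 764 CPM, so 6 of 8 Pbrm1-fl tumours were above all 13 controls while replicate 8 was below all of them. Igfbp4 was higher in Pbrm1-fl by 2.03 ± 0.45 (SE) on the log2 scale (adjusted p = 0.00487), the only member called in a comparison that called 7.35% of all genes. The call held in all 21 fits with 1 library left out, at 1.41 (adjusted p = 0.0444) without Pbrm1-fl replicate 4, the tumour at 3818 CPM, and up to 2.30. Leaving out the library labelled hSS2 control replicate 9 gave 1.94 (adjusted p = 0.00895), and with the muscle score as a covariate 2.21 (adjusted p = 0.00128). Against the 4 controls of the same mouse number range the size was similar, 2.09, with an adjusted p of 0.123. Over all hSS2 tumours Igfbp4 moved with the adipocyte list at r = 0.49 (rho = 0.50, permutation test, adjusted p = 0.0071 and 0.00554; r = 0.43 without the 2 farthest tumours). This r pools the lower and higher muscle sets and is not given within each. The adipocyte sums overlapped, at 0.102 to 216 CPM in Pbrm1-fl and 0.350 to 290 CPM in control, and the part of this list in the difference was not tested.

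The other floxed groups did not share this rise. Arid1a-fl tumours held 52.3, 161 and 216 CPM of Igfbp4 (lowest, median, highest) and Arid1b-fl tumours 111, 273 and 448 CPM, both overlapping the controls. Igfbp4 was higher in Pbrm1-fl than in Arid1a-fl by 2.90 ± 0.55 (adjusted p = 0.00069), a call kept in all 16 fits with 1 library left out, with 7 of 8 tumours above every Arid1a-fl tumour. It was higher than in Arid1b-fl by 1.89 ± 0.53 (adjusted p = 0.0320), with 6 of 8 above and 1 below every Arid1b-fl tumour, in a comparison that called 4.37% of genes. The latter call was lost without Pbrm1-fl replicate 4 (1.27, adjusted p = 0.158), without Arid1b-fl replicate 1, 2, 5 or 6 (adjusted p 0.0629, 0.056, 0.0598 and 0.0604) and with no filter on low counts (1.88, adjusted p = 0.0555). With each group set against controls of its own mouse number range, the differences were 3.13 (adjusted p = 0.0587) from Arid1a-fl and 1.80 (adjusted p = 0.537) from Arid1b-fl. In hSS1 the controls held 95.7, 162, 65.5, 48.5 and 379 CPM and the Pbrm1-fl tumours 64.6, 281, 5160 and 117 CPM. The highest value, in replicate 3, is that of the hSS1 tumour whose Pbrm1 level was as low as in hSS2 Pbrm1-fl. The hSS1 difference was 3.24 ± 1.31 (adjusted p = 0.257) with replicate 3 and 0.02 (adjusted p = 0.992) without it.

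Igfbp2, a binding protein abundant in fetal tissue and in many tumours, was lowest in Pbrm1-fl. The hSS2 Pbrm1-fl tumours held 1.602, 1.82, 2.73, 1.74, 3.19, 12.02, 1.88 and 0.971 CPM. The lowest, median and highest levels were 0.813, 6.13 and 91.7 CPM in control, 1.498, 36.8 and 150 CPM in Arid1a-fl, and 3.02, 12.5 and 331 CPM in Arid1b-fl. All 8 Pbrm1-fl tumours were below the medians of both other floxed groups, and 6 of 8 were below every Arid1b-fl tumour. Igfbp2 was lower in Pbrm1-fl than in Arid1a-fl by 3.97 ± 1.13 on the log2 scale (log2 difference -3.97, adjusted p = 0.0178) and than in Arid1b-fl by 4.30 ± 1.15 (log2 difference -4.30, adjusted p = 0.0243). The first call held in all 16 fits with 1 library left out. The second was lost without Arid1b-fl replicate 2, the tumour at 331 CPM (-2.93, adjusted p = 0.107), without Pbrm1-fl replicate 4 (-4.20, adjusted p = 0.0519) and with the muscle score as a covariate (-3.10, adjusted p = 0.0884). With controls of each group's own mouse number range the 2 differences were -5.15 (adjusted p = 0.0817) and -7.82 (adjusted p = 0.0723). The controls of these ranges differed in muscle transcripts. All but replicate 4 of those numbered 2000 and over were in the lower muscle set. Every control numbered 1000 to under 2000 was in the higher set, and those numbered under 1000 were in both. Control levels of Igfbp2 differed between the sets, as described below. The larger size of the range-matched differences therefore cannot be assigned to genotype, and the part of muscle in it was not tested.

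Against the controls, Igfbp2 in Pbrm1-fl differed by -2.94 ± 1.04 (SE) on the log2 scale and did not pass (adjusted p = 0.0765, edgeR), while DESeq2 called it (adjusted p = 0.00808), as did edgeR without Pbrm1-fl replicate 6 (-3.67, adjusted p = 0.0427). The control levels themselves varied with muscle transcripts, from 9.77 to 91.7 CPM in the 5 controls of the lower muscle set and from 0.813 to 7.20 CPM in the 8 of the higher set. In the lower set the 5 Pbrm1-fl tumours held 0.971 to 3.19 CPM, apart from the controls, and in the higher set 1.602 to 12.02 CPM, overlapping them. These ranges are a description, without a test. In controls of the lower muscle set the median was 67.3 CPM in hSS2 (n = 5) and 71.6 CPM in hSS1 (n = 4). The ranges overlapped, at 9.77 to 91.7 CPM and 18.985 to 94.8 CPM. The cut was taken midway in the hSS2 gap, so these 4 include hSS1 control replicate 3, with a muscle sum of 1156 CPM. The backgrounds were not tested against each other, since background and table cannot be told apart. In hSS1 the controls held 94.8, 143, 92.8, 50.4 and 18.985 CPM and the Pbrm1-fl tumours 37.9, 22.8, 4.14 and 9.81 CPM. All 4 were below the control median, 2 of them below every control, and the difference of -2.11 ± 0.71 did not pass in edgeR (adjusted p = 0.202) but did in DESeq2 (adjusted p = 0.0319).

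The region before the start of each of these 2 genes is shown because they moved in opposite directions between Pbrm1-fl and the other floxed groups. Each is the 250 bases before a RefSeq start on GRCm38.p6, plus strand, 5′ to 3′, with TATAAA (the TATA box) and GGGCGG (the core of a GC box) in capitals wherever either was found on the strand shown or its complement.
Igfbp4 (chr11:99040994-99041243): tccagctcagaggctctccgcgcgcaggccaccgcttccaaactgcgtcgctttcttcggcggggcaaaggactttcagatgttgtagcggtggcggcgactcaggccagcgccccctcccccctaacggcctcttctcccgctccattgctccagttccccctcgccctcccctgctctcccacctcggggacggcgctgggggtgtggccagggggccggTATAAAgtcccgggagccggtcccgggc
Igfbp2 (chr1:72824230-72824479): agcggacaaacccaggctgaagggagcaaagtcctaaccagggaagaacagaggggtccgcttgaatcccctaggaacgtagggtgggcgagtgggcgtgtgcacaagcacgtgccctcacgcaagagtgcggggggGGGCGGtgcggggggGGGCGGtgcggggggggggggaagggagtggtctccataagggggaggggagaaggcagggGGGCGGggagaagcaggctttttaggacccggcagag
The Igfbp4 window holds 1 TATAAA, 28 bases before the start, and no GGGCGG. The Igfbp2 window holds 3 GGGCGG and no TATAAA. RefSeq gives Igfbp2 another start, whose window (chr1:72825137-72825386, not shown) holds neither. On either strand, TATAAA is present in 12.4% and GGGCGG in 32.7% of all 32851 promoter windows of this length. Both windows shown are rich in G and C, at 69.2% and 67.2% against a median of 52.4% over all windows. Of the 10 members 9 had an entry, 14 windows in all, of which 2 hold TATAAA and 6 hold GGGCGG. A match of letters is a description and not evidence of a site in use.

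The remaining binding proteins varied widely between tumours without a call in any comparison. Igfbp3, the main carrier of IGFs in blood, had lowest, median and highest levels of 32.8, 141 and 599 CPM in hSS2 control, 116, 182 and 280 CPM in Pbrm1-fl, 37.3, 171 and 247 CPM in Arid1a-fl, and 80.0, 191 and 245 CPM in Arid1b-fl. In hSS1 the controls held 205, 231, 84.7, 360 and 85.8 CPM and the Pbrm1-fl tumours 80.7, 27.6, 164 and 59.8 CPM, 3 of them below every control. Igfbp5, prominent in muscle and bone, had 37.01, 200 and 670 CPM in hSS2 control, 19.8, 129 and 418 CPM in Pbrm1-fl, 48.4, 116 and 886 CPM in Arid1a-fl, and 48.8, 113 and 440 CPM in Arid1b-fl. In hSS1 its controls held 154, 463, 295, 8.21 and 22.1 CPM and its Pbrm1-fl tumours 60.6, 32.1, 454 and 14.3 CPM. These groups overlap in every comparison of Igfbp5.

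**Figure D5:**
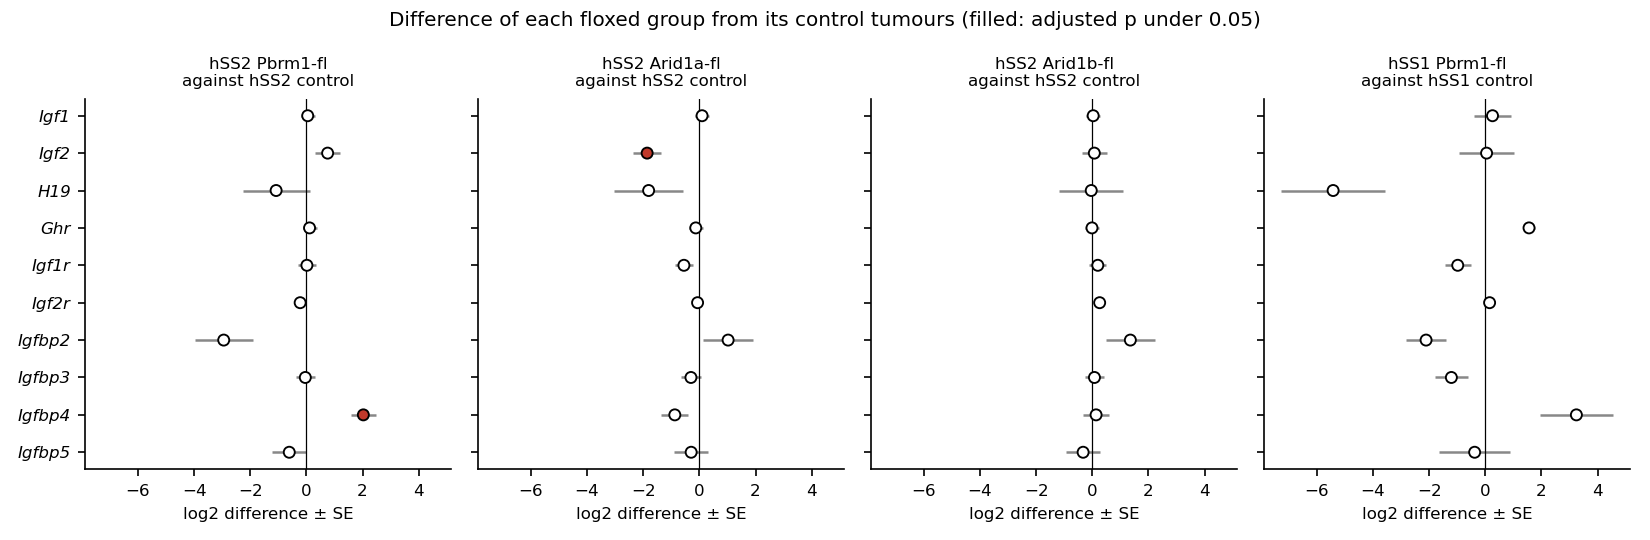
Log2 difference ± SE (edgeR) of each of the 10 genes between each floxed group and its control tumours, filled where the adjusted p is under 0.05. Filled points are Igfbp4 in hSS2 Pbrm1-fl (2.03) and Igf2 in hSS2 Arid1a-fl (-1.86). The widest error bars are those of H19 and Igfbp2 in hSS2, and of H19, Igfbp4 and Igfbp5 in hSS1.

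By count, the members called were 1 of 10 in hSS2 Pbrm1-fl against control, 1 of 10 in Arid1a-fl against control, 3 of 10 in Pbrm1-fl against Arid1a-fl (Igf2 and Igfbp4 higher, Igfbp2 lower) and 2 of 10 in Pbrm1-fl against Arid1b-fl (Igfbp4 higher, Igfbp2 lower). In the same order 7.35%, 3.17%, 12.3% and 4.37% of all genes tested were called. All shares of genes given here are those of edgeR. The median log2 difference of the members was -0.01, -0.30, 0.25 and -0.15 in these comparisons, beside -0.004, -0.04, 0.02 and 0.01 over all genes tested. In Arid1b-fl against control edgeR called 0 of 10, with 0 at an unadjusted p under 0.05 and 0 called by DESeq2, in a comparison that called 0.0548% of genes, and the member differences ran from -0.33 to 1.35 with a median of 0.07 beside 0.00 over all genes. In Arid1a-fl against Arid1b-fl edgeR called 0 members, with 2 at an unadjusted p under 0.05 and 1, Igf2, called by DESeq2 (-1.92, adjusted p = 0.0255), where 0.0996% of genes were called. In hSS1 edgeR called 0 members, with 4 at an unadjusted p under 0.05 and 2 (Ghr and Igfbp2) called by DESeq2, where 0.00562% of genes were called. The member differences there ran from -5.42 ± 1.86 for H19 (adjusted p = 0.209) to 3.24 for Igfbp4. In the interaction edgeR called 0 members, with 1 at an unadjusted p under 0.05 and 1 (Ghr) called by DESeq2, where 2.86% of genes were called.

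Of 42 further genes of IGF and growth hormone signaling, 39 could be tested in hSS2. Pbrm1-fl against control called 8 of them, 3 higher and 5 lower, where 7.35% of all genes tested were called. Igf2bp1 and Igf2bp3 encode fetal RNA-binding proteins named for their binding to Igf2 mRNA. Igf2bp1 held 1.22, 4.39, 53.9, 3.38, 1.79, 2.29, 7.001 and 2.86 CPM in Pbrm1-fl against 0.131 to 1.48 CPM in control, all but replicate 1 above every control, and was higher by 3.94 ± 0.63 (adjusted p = 0.000215). Without Pbrm1-fl replicate 3, the tumour at 53.9 CPM, the difference was 2.37 (adjusted p = 0.00463). Igf2bp3 held 1.02 to 8.66 CPM in Pbrm1-fl against 0.0583 to 3.44 CPM in control, ranges that overlap, and was higher by 2.32 ± 0.61 (adjusted p = 0.0170). Insrr, an orphan receptor of the insulin receptor family, was higher by 1.39 (adjusted p = 0.0248), a call lost without Pbrm1-fl replicate 4 (1.22, adjusted p = 0.0718).

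Of the 5 genes called lower, Irs1 and Foxo1 are given here, and Hmga2, a chromatin protein, is given below. Irs1, the docking protein that couples the IGF1 receptor to PI3 kinase, held 23.5 to 165 CPM in Pbrm1-fl against 100 to 439 CPM in control and fell by 1.33 ± 0.34 (adjusted p = 0.0126). Foxo1, a transcription factor that AKT holds out of the nucleus, fell by 0.71 ± 0.18 (adjusted p = 0.0135). The Irs1 call also held against controls of the same mouse number range (-1.75, adjusted p = 0.0178), and the calls of Igf2bp1, Igf2bp3, Insrr and Foxo1 were lost there (adjusted p 0.0581, 0.176, 0.380 and 0.138). Irs1, Foxo1, Igf2bp1 and Igf2bp3 held in all 21 fits with 1 library left out.

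Pbrm1-fl against Arid1a-fl called 7 of the 39 genes, 6 higher and 1 lower, beside 12.3% of all genes, and against Arid1b-fl 5, 3 higher and 2 lower, beside 4.37% of all genes. In Arid1a-fl against control edgeR called 0 (11 at an unadjusted p under 0.05, 3 called by DESeq2), in Arid1b-fl against control 0 (1 at an unadjusted p under 0.05, 0 by DESeq2), and in Arid1a-fl against Arid1b-fl 0 (5 at an unadjusted p under 0.05, 0 by DESeq2). Over the 39 genes the median log2 difference was -0.06 in Pbrm1-fl, -0.30 in Arid1a-fl and 0.02 in Arid1b-fl against control. In hSS1, with 35 genes tested, edgeR called 0 (6 at an unadjusted p under 0.05, 2 by DESeq2). The interaction called 6 of 40, 2 higher and 4 lower in the hSS1 effect than in that of hSS2, beside 2.86% of all genes. Igf2bp2, the family member that stays active in adult tissue, held 130, 50.6, 95.9 and 93.4 CPM in hSS1 Pbrm1-fl against 4.46, 12.6, 5.39, 58.2 and 0.825 CPM in hSS1 control, and 20.3 to 47.4 CPM against 19.9 to 83.3 CPM in hSS2 (interaction 3.29 ± 0.72, adjusted p = 0.0119). Hmga2, a chromatin protein known to promote Igf2bp2 transcription, held 481, 163, 341 and 329 CPM in hSS1 Pbrm1-fl against 34.5, 63.9, 82.1, 366 and 59.2 CPM in hSS1 control (interaction 2.38 ± 0.59, adjusted p = 0.0222). In hSS2 Hmga2 ran from 61.7 to 321 CPM in Pbrm1-fl and from 173 to 531 CPM in control, and it fell by 0.96 on the log2 scale (adjusted p = 0.0314), a call lost in 7 of 21 fits with 1 library left out (adjusted p up to 0.0663, without Pbrm1-fl replicate 4), with the muscle score as a covariate (adjusted p = 0.0713) and with controls of the same mouse number range (adjusted p = 0.818). Socs2, an inhibitor of growth hormone signaling that this signal induces, held 5.17, 5.26, 21.7 and 34.9 CPM in hSS1 Pbrm1-fl against 461, 69.5, 131, 16.8 and 338 CPM in hSS1 control (interaction -4.44 ± 0.96, adjusted p = 0.0109). Hmga2 and Igf2bp2 were each high in hSS1 control replicate 4, which also had the lowest Socs2 of the controls. With hSS2 limited to mice numbered 2000 and over, the calls of all 6 genes were lost (adjusted p 0.121 to 0.317).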

How the data were processed

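Raw read counts per Ensembl gene were deposited by the authors as 1 table of 37 hSS2 and 1 of 9 hSS1 libraries (rRNA-depleted, stranded). Per the labels, reads were aligned to mm10 with STAR 2.7.11 and counted with featureCounts 1.6.3. Strand and multi-mapping settings and the annotation release are not given in the sources used here. Symbols, positions and exon lengths came from GENCODE M21. Groups came from the sample titles, each tumour from a separate mouse.

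Counts were filtered (filterByExpr), scaled by TMM and tested with edgeR 4.0.16 (quasi-likelihood F-test, two-sided, Benjamini-Hochberg over all genes, threshold 0.05) in R 4.3.3. The 37 hSS2 libraries shared 1 fit, the 9 hSS1 libraries another, and all 46 the interaction. DESeq2 1.42.0 was an alternative. Scripts were tested on simulated data. Ratios were compared by exact permutation tests (7 comparisons), and correlations by 100000 permutations (9 relations of Igf2 with H19, then 2 by muscle set). Marker lists were scored as mean log2 CPM with a prior count of 2. The members and lists were chosen with earlier results of these data known. Named genes were all 10 members, up to 6 called pathway genes per comparison (1 gene is not reported here), the chromosome 7 neighbours, and the 5 genes most like Igf2 and H19. Replicates are numbered within groups. Depth (10137668 to 21294657 counts) makes counting error small beside the spread between tumours for the members. Igf2os, Igf2bp1 and Igf2bp3 had few counts in some libraries, so the size of their log2 differences is less certain.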

Additional observations from a re-analysis of the deposited data

Results flagged for a closer look

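Of 55 sets of levels (the 10 genes and the ratio of H19 to Igf2 in the 5 groups of 4 to 8 tumours), 13 held a tumour set far apart from the rest of its group by Dixon's criterion. Its rate of about 1 in 20 by chance is for normal values. The gene levels were taken in CPM, where they are skewed, so the 13 cannot be set against that rate. In hSS1 Pbrm1-fl, 4 of these were in replicate 3, with Igf2 at 67.1 CPM, Igf1r at 25.6 CPM, Igfbp4 at 5160 CPM and Igfbp5 at 454 CPM. In hSS1 control they were Igf2 at 94.2 CPM and H19 at 698 CPM in replicate 2 and Igf1 at 941 CPM in replicate 5. In hSS2 they were H19 at 1509 CPM in Arid1b-fl replicate 3, Igfbp2 at 331 CPM in Arid1b-fl replicate 2 and at 12.02 CPM in Pbrm1-fl replicate 6, Igfbp3 at 80.0 CPM in Arid1b-fl replicate 1, Igfbp4 at 3818 CPM in Pbrm1-fl replicate 4, and Igfbp5 at 886 CPM in Arid1a-fl replicate 3.

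The Pbrm1-fl effect differed between the hSS1 and hSS2 backgrounds for 6 genes of the wider pathway by the interaction in edgeR. The log2 difference was -4.44 for Socs2, 3.29 for Igf2bp2, -5.86 for Igf2bp1 (adjusted p = 0.0144), -5.66 for Igf2bp3 (adjusted p = 0.0221), 2.38 for Hmga2 and -1.87 for Irs2 (adjusted p = 0.0458). The calls of Socs2, Igf2bp1 and Igf2bp2 held in all 9 fits with 1 hSS1 library left out, those of Igf2bp3, Hmga2 and Irs2 in 7, 6 and 2. No member passed this test.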

How the results depend on the processing

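No paired analysis was possible because the labels give mouse numbers and neither litters nor replicate numbers shared between groups, although the study's methods name littermates as controls. Controls of the same mouse number range stand in for it. Depth limits the members little, and the number of tumours and the spread between them limit precision. Causes of the changes below were not tested. The count of members called became 2 with DESeq2 and 0 with controls of the same mouse number range in hSS2 Pbrm1-fl against control. It became 0 with no filter and 0 with the muscle score as a covariate (added after seeing the data) in Arid1a-fl against control. With ranges matched it was 0 in Pbrm1-fl against Arid1a-fl and 0 against Arid1b-fl, the latter being 1 with no filter and 1 with the muscle covariate. DESeq2 called 1 in Arid1a-fl against Arid1b-fl, 2 in hSS1 and 1 in the interaction, where the muscle covariate also gave 1. With 1 library left out the count ran from 1 to 2 in Pbrm1-fl and 0 to 1 in Arid1a-fl against control, stayed at 3 in Pbrm1-fl against Arid1a-fl, and ran from 0 to 2 in Pbrm1-fl against Arid1b-fl, 0 to 1 in Arid1a-fl against Arid1b-fl, and 0 to 1 in the interaction.

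Signs turned for differences that were called under neither setting. With the muscle covariate Ghr became 0.12 in Arid1a-fl and 0.045 in Arid1b-fl against control and 0.079 between these groups, and Igfbp2 became 0.41 between these groups and -0.45 in the interaction. With matched ranges Igf2 became -0.037 in Arid1b-fl against control, H19 0.34 in Pbrm1-fl against Arid1b-fl, and the log2 ratio of H19 to Igf2 0.33 in Arid1a-fl against control. With 1 library left out, the ranges that crossed 0 were, against control, -0.29 to 0.25 for Igf2, -1.07 to 0.37 for H19, -0.028 to 1.71 for Igfbp2, -0.035 to 0.39 for Igfbp4 and -0.15 to 0.082 for Ghr in Arid1b-fl, and -0.026 to 0.21 for Ghr in Pbrm1-fl. Between Arid1a-fl and Arid1b-fl they were -0.80 to 1.07 for Igfbp2 and -0.20 to 0.044 for Ghr. In hSS1 Igf2 ran from -0.94 to 1.44, and in the interaction Igf2 ran from -1.69 to 0.69 and Igfbp4 from -2.02 to 1.95. The ratio ran from -0.74 to 0.44 in Arid1a-fl and -0.86 to 0.14 in Arid1b-fl against control, and from -0.31 to 0.87 between them. The ratio was not compared between floxed groups with matched ranges because they share none. Over all 37 hSS2 tumours the planned correlation of Igf2 with H19 pools the clusters and its size is not given, and with adjustment over 9 relations r did not pass (permutation test, adjusted p = 0.0520) while rho did (adjusted p = 0.00724). Its r was -0.40 within Arid1a-fl and 0.74 within the higher muscle set. TMM scaling moved 0 of 60 mean levels by 1 SD.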
